A study of Homo sapiens with 6 samples.

Results

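YAP1 and WWTR1 (whose protein is called TAZ), their DNA-binding partner TEAD1, and 7 genes that YAP and TAZ are known to switch on through TEAD factors were examined in U87MG cells treated with RSL3. The 10 genes were CCN1, CCN2, CRIM1, ANKRD1, AMOTL2, AJUBA, LATS2, YAP1, WWTR1 and TEAD1, chosen by name among 65988 gene identifiers. U87MG is a long-established line of human glioblastoma cells, labelled as brain, and RSL3 is an inhibitor of GPX4, the enzyme that removes lipid peroxides, which drives cells towards ferroptosis, an iron-dependent death by lipid peroxidation. Poly(A) RNA was sequenced from 3 libraries of cells given vehicle (control) and from 3 libraries of cells given RSL3 at 2 µM, and the study's aim was to find factors that set how vulnerable cells are to ferroptosis. The time of 24 h comes from the study's figure legend, since the sample labels give none. The labels give no engineered allele in either group, and both groups grew in DMEM with heat-inactivated FBS, penicillin and streptomycin. A single cell line was used. The labels call the vehicle only that, and the methods give DMSO as the solvent of the RSL3 stock. The methods speak in general of biologically independent experiments or samples, but the labels do not say for these libraries whether those of a group came from separate cultures, and p-values then measure the spread between these libraries, which may be technical.

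In the Hippo pathway, the kinases MST1 and MST2 (genes STK4 and STK3) activate LATS1 and LATS2, which phosphorylate YAP and TAZ and hold them in the cytoplasm. When the kinases are less active, as in spread, sparse or serum-fed cells, YAP and TAZ enter the nucleus, bind TEAD factors on DNA and raise the mRNA of genes such as CCN1, CCN2 and ANKRD1. Several of these targets, among them LATS2, AMOTL2 and AJUBA, encode proteins that act back on the pathway. YAP activity is controlled mostly through the protein, and mRNA counts do not report it.

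The TEAD binding motif was searched first, because it is the sequence by which TEAD factors are known to bind their target genes. RefSeq promoter sequences (GRCh38.p14, 250 bases before to 50 after each start) were at hand for 7 of the 10 genes, in 10 windows. CCN1, TEAD1 and CRIM1 were not matched. The letters GGAATG, on either strand, occurred in 6 of the 10 windows and in 6 of the 7 genes, against 14% of all 35116 promoter windows. The 14% counts windows, and no share per gene over all genes was computed. Among the related lists described below, the same letters were in 5 of 13 windows of other YAP and TAZ targets. They were in 2 of 3 windows of LIM proteins related to AJUBA and 1 of 1 of other CCN genes. For the kinase cascade it was 2 of 19, and for other TEAD factors and cofactors 1 of 13. CCN2 held 3 matches, a number reached in 0.128% of all windows, and ANKRD1 held 2, where 1.37% of all windows held 2 or more. These are the 250 bases upstream of both starts, printed 5′ to 3′ along each gene with the motif in capitals.
CCN2, chr6:131951373-131951622, minus strand: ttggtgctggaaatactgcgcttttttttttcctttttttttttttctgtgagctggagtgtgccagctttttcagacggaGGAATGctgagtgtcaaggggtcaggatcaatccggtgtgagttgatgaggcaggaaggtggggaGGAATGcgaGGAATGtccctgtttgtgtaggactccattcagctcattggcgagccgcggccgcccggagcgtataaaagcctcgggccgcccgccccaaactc
ANKRD1, chr10:90921088-90921337, minus strand: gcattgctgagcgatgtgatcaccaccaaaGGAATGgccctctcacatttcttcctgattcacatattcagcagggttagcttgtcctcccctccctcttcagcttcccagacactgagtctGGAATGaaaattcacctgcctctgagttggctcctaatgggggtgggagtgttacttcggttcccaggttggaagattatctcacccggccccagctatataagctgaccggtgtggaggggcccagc

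In CCN2 the matches began at -169, -104 and -95, counted from the RefSeq start as position 0, so that the latter 2 lay almost side by side. In ANKRD1 they began at -220 and -128. The ANKRD1 window also held the letters TGATTCA at -195, which match the AP-1 motif as searched, TGANTCA with any base at N. This match overlapped neither TEAD match, and the motif as searched occurred in 7.71% of all windows. The CArG box, the motif of serum response factor, was in none of the 10 windows and in 1.29% of all windows. The 4 further genes with a match had 1 each, and the 30 bases around each match are printed to show its setting, with the motif in capitals. In AMOTL2 the motif GGAATG lies on the opposite strand, so that the printed capitals read CATTCC.
AMOTL2, chr3:134374499-134374528, minus strand: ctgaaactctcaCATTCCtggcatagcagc
AJUBA, chr14:22976884-22976913, minus strand: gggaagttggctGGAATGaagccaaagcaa
LATS2, chr13:21061560-21061589, minus strand: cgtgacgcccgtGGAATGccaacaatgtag
YAP1, chr11:102110273-102110302, plus strand: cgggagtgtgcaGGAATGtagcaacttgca

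The match began at -69 in AMOTL2 and at -59 in AJUBA, in both at the second of 2 annotated starts, at 9 in LATS2, just inside the transcript, and at -162 in YAP1. Neither of the 2 windows of WWTR1 held one. A match describes letters and not binding, and distal enhancers, where much TEAD binding is known to occur, lie outside these windows.

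**Figure D1:**
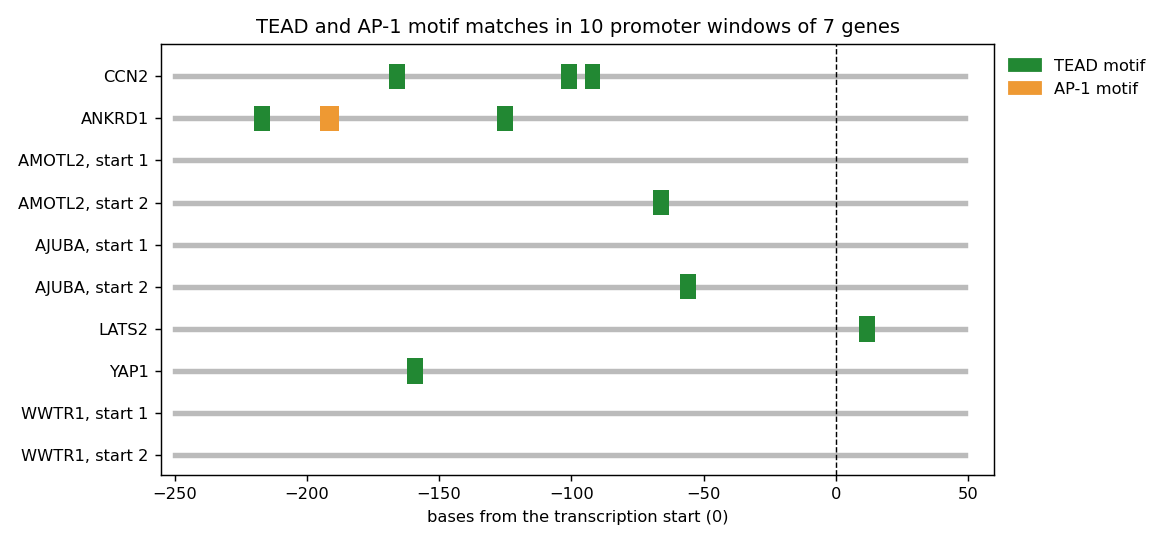
Position of each TEAD motif (GGAATG, either strand) and AP-1 motif (TGANTCA) in the 10 RefSeq promoter windows of 7 genes, in bases from the transcription start at 0 (grey line: window searched). CCN2 holds 3 TEAD matches, ANKRD1 holds 2 TEAD matches and 1 AP-1 match, and both windows of WWTR1 are empty.

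The groups differed in 6 of the 10 genes. CCN2, AJUBA and CRIM1 rose in RSL3-treated cells, whereas TEAD1, WWTR1 and YAP1 fell, and CCN1, ANKRD1, AMOTL2 and LATS2 did not pass the test. The test was edgeR's quasi-likelihood test with adjustment over all 16105 genes tested at a threshold of 0.05. It called 25.6% of all genes, 12.9% as higher and 12.7% as lower in RSL3-treated cells, against 3 of 10 in each direction here. Control and RSL3 libraries were fully apart in 8 of the 10 genes, against 38.6% of all genes tested. These shares are descriptive, because the 10 genes were chosen with earlier results of these data known. The median log2 fold change of the 10 genes was 0.09, beside -0.0044 for all genes tested. All 10 passed the filter on low counts, and the lowest raw count of any of them in any library was 43, for ANKRD1. The libraries held 27813462 to 43306335 counts and differed within each group by more than sampling noise. In bulk RNA, fewer cells that carry a transcript and less of it per cell cannot be told apart.

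**Figure D2:**
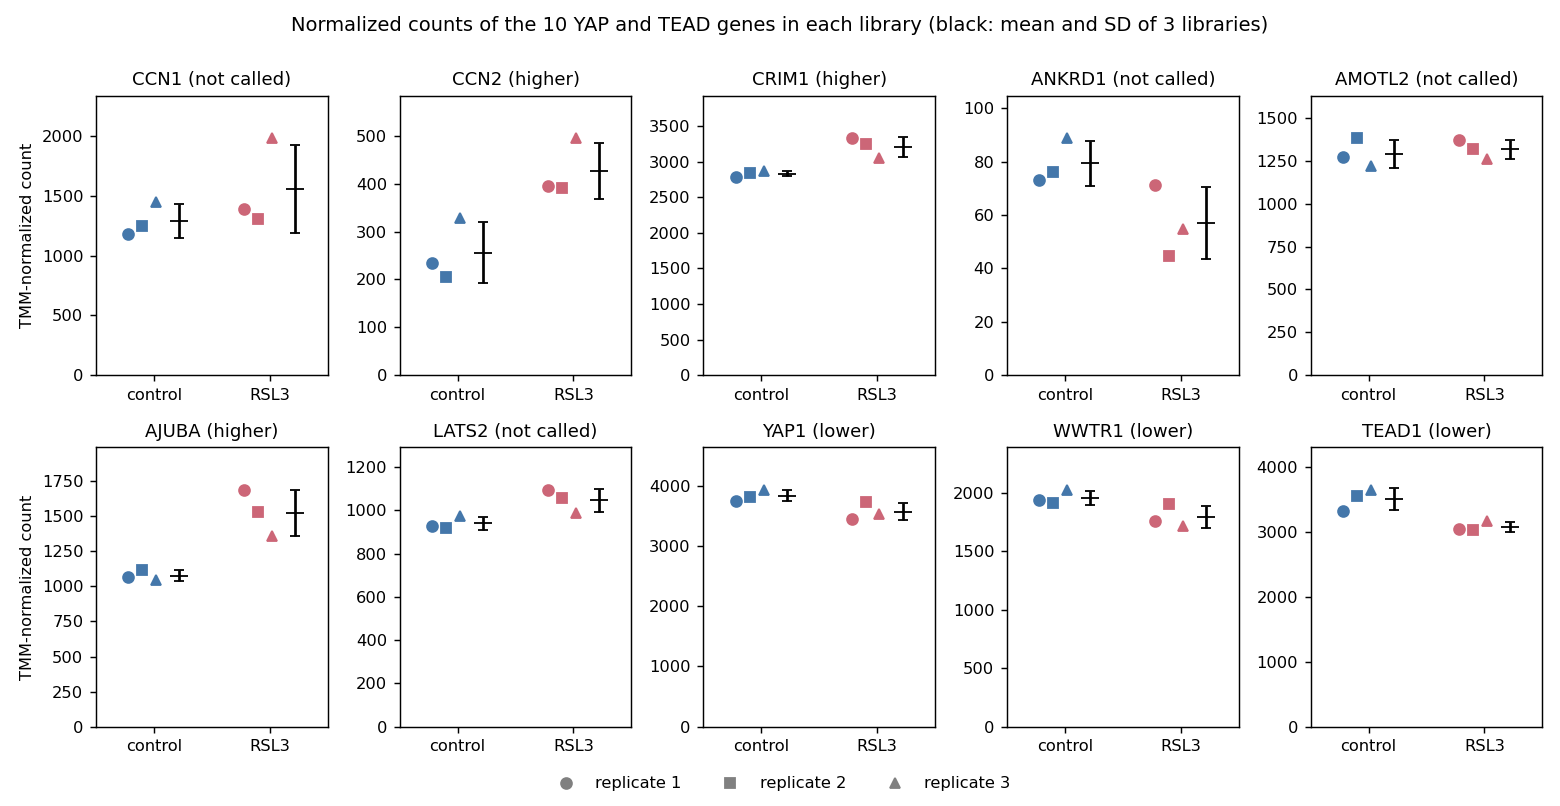
TMM-normalized count of each gene in each library (vertical axes from 0), with control in blue, RSL3 in red, the replicate number by shape, and mean and SD of 3 libraries in black. CCN2 and AJUBA show the widest gaps between groups, AMOTL2 overlaps, and replicate 3 is the highest library of its group for CCN1 and CCN2.

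CCN2, formerly CTGF, encodes a secreted matrix-associated growth factor and was the member with the largest rise. Its normalized counts were 235, 205 and 327 in control replicates 1, 2 and 3 and 394, 392 and 494 in RSL3 replicates 1, 2 and 3. All 3 RSL3 libraries were above all 3 control libraries. CCN2 rose by 65.9%, a log2 fold change of 0.73 with an SE of 0.13 and a 95% confidence interval of 0.45 to 1.01 (edgeR, adjusted p = 0.000278). It stood at place 199 among the 2082 genes that rose, ordered by fold change. The gene lies at chr6:131948176-131951372 on the minus strand of GRCh38. It shares 11.9% of its exon bases with LINC01013, which held at most 0.786 normalized counts in any library. The methods do not say whether reads from shared bases were left out of the counts. A low partner count therefore does not show that the partner was silent.

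CCN1, formerly CYR61, encodes a closely related secreted protein that binds integrins (chr1:85580761-85584589, plus strand). Normalized counts were 1178, 1246 and 1452 in the control libraries and 1389, 1305 and 1980 in the RSL3 libraries. The groups overlapped, since control replicate 3 lay above RSL3 replicates 1 and 2. The log2 fold change was 0.27 (SE 0.10, 95% confidence interval 0.06 to 0.49) and missed the threshold (edgeR, adjusted p = 0.0593). RSL3 replicate 3 decided its size. Without that library the log2 fold change was 0.06 (edgeR, adjusted p = 0.584), whereas without control replicate 3, RSL3 replicate 1 or RSL3 replicate 2 CCN1 passed, with log2 fold changes of 0.37, 0.35 and 0.39 (edgeR, adjusted p = 0.0192, 0.0286 and 0.00986). CCN1 did not pass without control replicate 1 or 2 (edgeR, adjusted p = 0.261 and 0.125). DESeq2 did not call it either (adjusted p = 0.417).

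CCN1 and CCN2 varied more between libraries of a group than the other genes did, ANKRD1 excepted. The coefficient of variation of CCN2 was 24.8% in control and 13.7% in RSL3-treated cells, and that of CCN1 was 11.0% and 23.6%. For comparison it was 2.38% and 4.11% in YAP1 and 1.38% and 4.34% in CRIM1. Both CCN genes were highest in replicate 3 of either group.

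CRIM1 encodes a membrane protein with cysteine-rich repeats that binds bone morphogenetic proteins (chr2:36355778-36551135, plus strand). Its normalized counts were 2788, 2844 and 2863 in control and 3327, 3253 and 3057 in RSL3-treated libraries, with no overlap. CRIM1 rose by 13.4%, a log2 fold change of 0.18 with an SE of 0.04 and a 95% confidence interval of 0.10 to 0.26 (edgeR, adjusted p = 0.00109). The rise was small, but larger than the spread within either group.

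ANKRD1, an ankyrin repeat protein of the nucleus and of muscle sarcomeres and a widely used readout of YAP in cells outside muscle, went the other way in its counts (chr10:90912096-90921087, minus strand). It had the fewest counts of the 10 genes, with normalized counts of 73.1, 76.3 and 88.8 in control and 71.3, 44.7 and 54.9 in RSL3-treated libraries. Every RSL3 library was below every control library, though RSL3 replicate 1 only just so. The log2 fold change was -0.48 with an SE of 0.22 and a 95% confidence interval of -0.93 to -0.03, and it did not pass (edgeR, adjusted p = 0.110). Thus, in the main fit, which takes the libraries as unpaired, the 3 genes most often used to read out YAP gave 1 call, CCN2, and 2 values without a call, of opposite sign. With the replicate number as a block CCN1 was also called (edgeR, adjusted p = 0.00132), though the labels do not pair the libraries.

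The 3 target genes whose proteins restrain or release YAP differed among themselves. AJUBA, a LIM domain protein that binds LATS kinases and keeps them from acting on YAP (chr14:22971177-22982551, minus strand), had normalized counts of 1064, 1118 and 1048 in control and 1687, 1527 and 1359 in RSL3-treated libraries. The lowest RSL3 library was well above the highest control library. AJUBA rose by 41.5%, a log2 fold change of 0.50 with an SE of 0.06 and a 95% confidence interval of 0.37 to 0.63 (edgeR, adjusted p = 3.43e-06), the smallest p of the 10 genes and place 361 among the 2082 genes that rose.

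LATS2, the kinase that phosphorylates YAP and TAZ (chr13:20973036-21061586, minus strand), had normalized counts of 927, 919 and 975 in control and 1095, 1058 and 990 in RSL3-treated libraries. The groups did not overlap, but RSL3 replicate 3 lay close to control replicate 3. Its log2 fold change of 0.15 (SE 0.06, 95% confidence interval 0.04 to 0.27) fell just short of the threshold (edgeR, adjusted p = 0.0516). It passed without control replicate 3 and without RSL3 replicate 3 (edgeR, adjusted p = 0.0454 and 0.0212).

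AMOTL2, an angiomotin family protein that binds YAP and holds it outside the nucleus (chr3:134355347-134375479, minus strand), had normalized counts of 1271, 1381 and 1219 in control and 1370, 1321 and 1258 in RSL3-treated libraries. The groups overlapped fully. The log2 fold change was 0.03 with a 95% confidence interval of -0.08 to 0.14 (edgeR, adjusted p = 0.731), and a log2 fold change as large as the 0.18 of CRIM1 lay outside that interval.

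The mRNAs of TEAD1 and of the coactivators YAP1 and WWTR1 were slightly lower in RSL3-treated cells, those of the coactivators only at the edge of the threshold. TEAD1, which binds DNA and recruits YAP and TAZ (chr11:12674421-12944737, plus strand), had normalized counts of 3330, 3550 and 3649 in control and 3044, 3033 and 3173 in RSL3-treated libraries. The groups were clearly apart. TEAD1 fell by 12.1%, a log2 fold change of -0.19 with an SE of 0.04 and a 95% confidence interval of -0.27 to -0.10 (edgeR, adjusted p = 0.00110).

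YAP1 (chr11:102110447-102233424, plus strand) had normalized counts of 3750, 3816 and 3930 in control and 3451, 3735 and 3529 in RSL3-treated libraries. RSL3 replicate 2 was nearly level with control replicate 1. YAP1 fell by 6.77%, a log2 fold change of -0.10 with a 95% confidence interval of -0.18 to -0.02 (edgeR, adjusted p = 0.0486). WWTR1 (chr3:149517235-149736714, minus strand) had normalized counts of 1939, 1911 and 2027 in control and 1762, 1905 and 1722 in RSL3-treated libraries. Here too RSL3 replicate 2 came within a few counts of the lowest control library. WWTR1 fell by 8.35%, a log2 fold change of -0.13 with a 95% confidence interval of -0.22 to -0.03 (edgeR, adjusted p = 0.0468).

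Both coactivator calls stood at the edge of the threshold. YAP1 lost its call without control replicate 2, control replicate 3, RSL3 replicate 1 or RSL3 replicate 3 (edgeR, adjusted p = 0.0968, 0.189, 0.220 and 0.133). WWTR1 lost its call without control replicate 1, 2 or 3 (edgeR, adjusted p = 0.0751, 0.0545 and 0.188) and without RSL3 replicate 1 or 3 (edgeR, adjusted p = 0.148 and 0.204). DESeq2 called neither (adjusted p = 0.0797 for YAP1 and 0.0981 for WWTR1). YAP1 shares 10.1% of its exon bases with 2 unnamed genes, of which ENSG00000254422 was at 0 and ENSG00000277459 held 38 normalized counts on average in control and 41.3 in RSL3-treated cells. WWTR1 shares 9.05% with WWTR1-AS1, which held 8.39 and 13.3. Reads were counted without regard to strand, so strand cannot assign reads from the shared bases to a gene. Whether such reads were counted or left out is not stated.

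**Figure D3:**
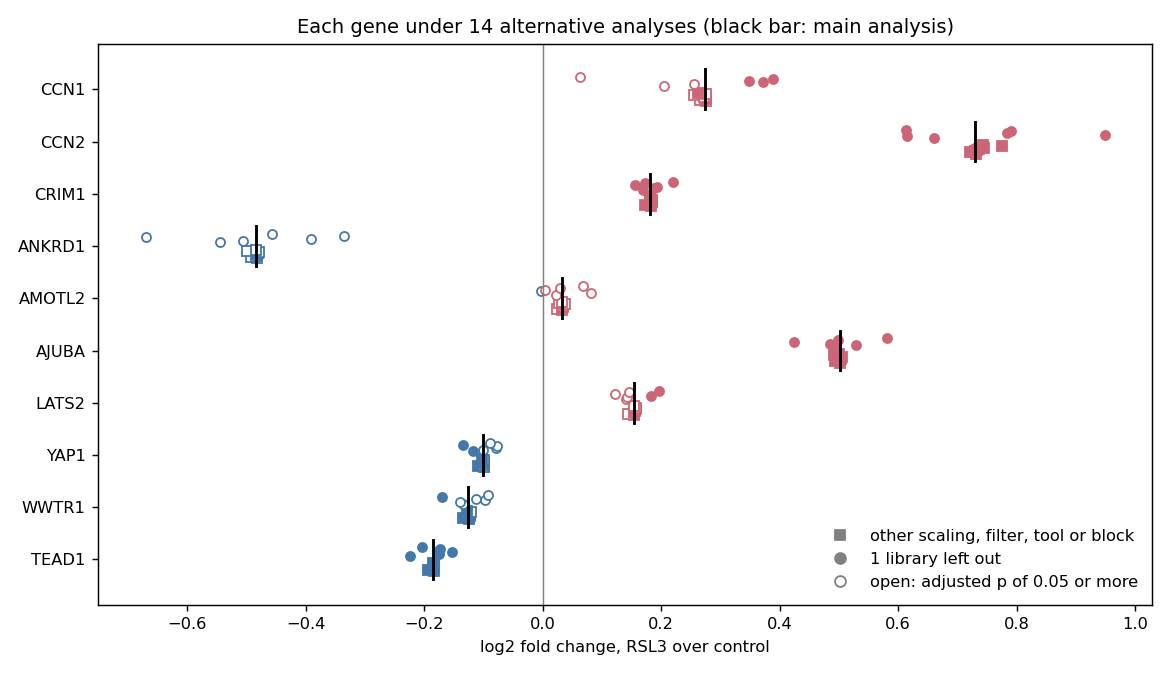
The log2 fold change of each gene (RSL3 over control) under 14 alternative analyses, with squares for another scaling, filter, tool or the replicate block, circles for 1 library left out, open symbols for an adjusted p of 0.05 or more, and a black bar for the main analysis. CCN2, AJUBA, CRIM1 and TEAD1 are filled throughout, ANKRD1 and AMOTL2 are open throughout, and CCN1 moves from 0.06 to 0.39.

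Levels of the 10 genes were compared as RPKM, the count scaled to library size and to the combined length of all annotated exons of a gene, which allows comparison between genes as far as that length holds for the transcripts made. In control cells YAP1 was highest at 17.8 ± 0.424 RPKM (SD, n = 3), at percentile 83.2 of the genes tested when all 6 libraries were averaged. CRIM1 (11.4 ± 0.157 RPKM), CCN1 (10.2 ± 1.13) and TEAD1 (9.62 ± 0.447) followed, and each overlapped its neighbour in this order. WWTR1 (6.88 ± 0.212 RPKM) stood apart from both neighbours, AMOTL2 (5.84 ± 0.374) and AJUBA (5.37 ± 0.183) overlapped, and LATS2 (4.91 ± 0.159), CCN2 (3.21 ± 0.797) and ANKRD1 (1.3 ± 0.136) came last without overlap between neighbours.

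In RSL3-treated cells the order by RPKM was the same except for AJUBA, which at 7.60 ± 0.816 RPKM stood above WWTR1 (6.31 ± 0.339) and AMOTL2 (5.96 ± 0.252). CCN2 reached 5.35 ± 0.734 RPKM, within the range of LATS2 (5.47 ± 0.278), and ANKRD1 remained lowest at 0.933 ± 0.220. YAP1 had the highest mean, 16.6 ± 0.681 RPKM.

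The order depended on the length used. With the length of the canonical transcript, an alternative chosen after seeing the data, the control order began with YAP1 (20.8 ± 0.495 RPKM), CCN1 (16.6 ± 1.83) and CRIM1 (13.7 ± 0.189), none of them overlapping, and WWTR1 (11.4 ± 0.351) overlapped TEAD1 (10.9 ± 0.508). In RSL3-treated cells CCN1 (20.1 ± 4.74 RPKM) and YAP1 (19.4 ± 0.796) then overlapped at the top, and AJUBA (10.7 ± 1.15) stood above TEAD1 (9.60 ± 0.242) in the mean. With either length LATS2, CCN2 and ANKRD1 had the 3 lowest means in both groups.

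The balance within 5 families of related genes was measured as the share of 1 gene in the summed RPKM of its family. YAP1 made up 72.1 ± 0.355% of YAP1 and WWTR1 in control and 72.5 ± 0.514% in RSL3-treated cells (SD, n = 3, difference 0.329 percentage points, exact two-sided permutation test, p = 0.5). The difference was smaller than the SD of either group, and it ranged from 0.0324 points without RSL3 replicate 3 to 0.534 points without control replicate 2. CCN1 made up 76.3 ± 2.82% of CCN1 and CCN2 in control and 69.5 ± 1.99% in RSL3-treated cells, a difference of -6.85 points with no overlap (exact permutation p = 0.1). TEAD1 made up 45.0 ± 2.23% of TEAD1 to TEAD4 in control and 39.0 ± 2.39% in RSL3-treated cells, a difference of -6.01 points, also with no overlap (exact permutation p = 0.1).

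LATS2 made up 56.5 ± 0.262% of LATS1 and LATS2 in control and 59.1 ± 1.90% in RSL3-treated cells, a difference of 2.65 points without overlap (exact permutation p = 0.1). For AMOTL2 in the angiomotin family the share was 66.9 ± 1.79% and 68.6 ± 0.888%, with overlap (exact permutation p = 0.2), and the difference of 1.69 points became 0.988 without control replicate 3 and 2.69 without control replicate 2. With canonical transcript lengths the control shares were 64.6% for YAP1, 53.3% for LATS2, 70.7% for AMOTL2, 44.1% for TEAD1 and 84.0% for CCN1, while the differences between groups were 0.376, 2.70, 1.58, -5.74 and -5.25 points. With 3 libraries against 3 the exact test cannot go below p = 0.1, so none of the 5 shares could pass, and after adjustment over the 5 shares the lowest of these permutation p-values was 0.167.

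**Figure D4:**
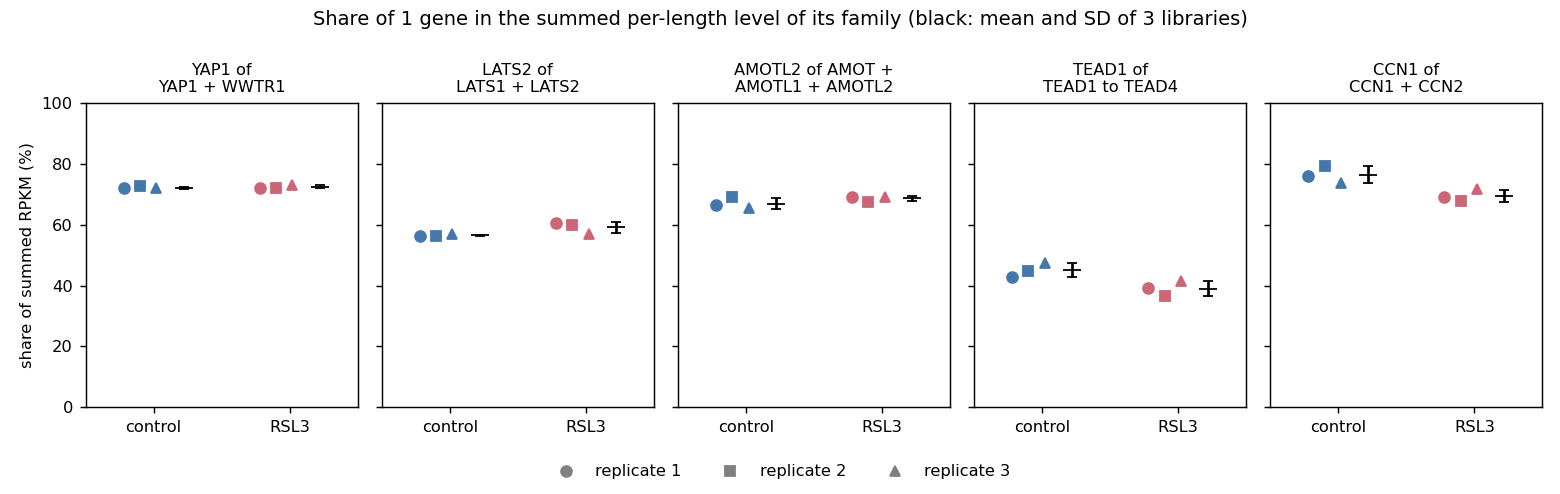
Share of YAP1, LATS2, AMOTL2, TEAD1 and CCN1 in the summed RPKM of its family in each library (percent, axes from 0 to 100), with control in blue, RSL3 in red, and mean and SD of 3 libraries in black. The shares of CCN1 and TEAD1 are lower and that of LATS2 is higher in all 3 RSL3 libraries, whereas YAP1 and AMOTL2 overlap.

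Most genes of the Hippo kinase cascade and its scaffolds did not pass the test. Of 14 listed and tested, 2 rose, 1 fell and 11 were not called, so that 21.4% were called, near the 25.6% of all genes, with a median log2 fold change of 0.03. STK4, the upstream kinase MST1, rose with a log2 fold change of 0.15, and its normalized counts were 4031, 4197 and 3938 in control and 4385, 4550 and 4538 in RSL3-treated libraries (edgeR, adjusted p = 0.00273). WWC2, a scaffold that activates LATS kinases, rose with a log2 fold change of 0.16 (edgeR, adjusted p = 0.00692), and FRMD6, a membrane scaffold of the cascade, fell with one of -0.20 (edgeR, adjusted p = 0.0133). WWC2 lost its call without control replicate 1 and FRMD6 without control replicate 2 or RSL3 replicate 3 (edgeR, adjusted p = 0.0553, 0.0535 and 0.0636). WWC2 shares 21.8% of its exon bases with CLDN22, which was at 0, with the limit given for LINC01013. LATS1 had a log2 fold change of -0.00 with a 95% confidence interval of -0.11 to 0.10 (edgeR, adjusted p = 0.980).

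Among other TEAD factors and cofactors that bind TEAD or YAP, 8 of 9 were tested, of which 1 rose and 2 fell (37.5% called, against 25.6% of all genes). VGLL1 was at 0 in every library. VGLL3, a cofactor that binds TEAD factors, had normalized counts of 1127, 1283 and 1305 in control and 782, 780 and 889 in RSL3-treated libraries. The groups lay far apart, and VGLL3 fell by 33.8%, a log2 fold change of -0.60 with an SE of 0.07 (edgeR, adjusted p = 6.98e-07). TEAD3 rose with a log2 fold change of 0.28 (edgeR, adjusted p = 0.00543), from 623, 605 and 580 normalized counts in control to 722, 785 and 687 in RSL3-treated libraries. AMOT, the angiomotin that gives the family its name, had the fewest counts of the 3 genes called here, 165, 146 and 161 in control and 118, 84.1 and 125 in RSL3-treated libraries. It fell with a log2 fold change of -0.53 (edgeR, adjusted p = 0.0164).

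TEAD3 and AMOT both lost their call without RSL3 replicate 2 (edgeR, adjusted p = 0.0545 and 0.111), and AMOT also without control replicate 1 (edgeR, adjusted p = 0.0660). TEAD2, TEAD4 and AMOTL1 had log2 fold changes of 0.24, 0.04 and 0.01 and did not pass (edgeR, adjusted p = 0.562, 0.788 and 0.963). TEAD1 therefore fell while TEAD3 rose, and the other two TEAD genes gave no call.

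The LIM proteins related to AJUBA gave 1 call among 4 tested (25%, against 25.6% of all genes), with a median log2 fold change of 0.05. LIMD1, which like AJUBA binds LATS kinases, rose with a log2 fold change of 0.17 (edgeR, adjusted p = 0.00144), from 2412, 2554 and 2494 normalized counts in control to 2822, 2752 and 2825 in RSL3-treated libraries. It shares 24.9% of its exon bases with LIMD1-AS1, which was at 0, with the same limit on what a low partner count shows. ZYX, a focal adhesion protein, had a log2 fold change of 0.07 and WTIP one of -0.37, and neither passed (edgeR, adjusted p = 0.0738 and 0.375).

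Of 16 other genes known as targets of YAP and TAZ, 15 were tested, of which 3 rose, 4 fell and 8 were not called, against 12.9% of all genes higher and 12.7% lower. FOXF2 was at 0 in every library. The median log2 fold change was 0.07. TGFB2, a secreted ligand of the TGF-β pathway, had normalized counts of 911, 925 and 918 in control and 494, 510 and 559 in RSL3-treated libraries. The control libraries were nearly equal, and TGFB2 fell by 43.1%, a log2 fold change of -0.81 with an SE of 0.07 (edgeR, adjusted p = 1.01e-08). It shares 34.2% of its exon bases with other genes, of which TGFB2-AS1 held 35.8 normalized counts in control and 23.4 in RSL3-treated cells.

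MYOF, a membrane repair protein, fell with a log2 fold change of -0.25 (edgeR, adjusted p = 1.41e-06), and AXL, a receptor tyrosine kinase, rose with one of 0.22 (edgeR, adjusted p = 7.18e-05). In the 7 target genes named at the start and these 15 together, 6 rose and 4 fell, beside 12.9% of all genes called higher and 12.7% lower. This count only adds up the calls given above, and it leaves out TEAD1, YAP1 and WWTR1, which fell.

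CCN3, CCN4 and CCN5 fell, the direction opposite to that of CCN2. They were 3 of the 4 other CCN genes tested, of which none rose, against 12.7% of all genes called lower, and the median log2 fold change was -0.64. CCN6, the fourth, had 8.61 to 14.1 normalized counts in control and 9.35 to 28 in RSL3-treated libraries, with overlap, and its log2 fold change of 0.61 did not pass (edgeR, adjusted p = 0.379). CCN5 had 84.1, 73.8 and 72.1 normalized counts in control and 13.8, 17.7 and 42.9 in RSL3-treated libraries, so that it fell by 67.1%, with a log2 fold change of -1.61 and an SE of 0.31 (edgeR, adjusted p = 0.000447). CCN4 had 44.8, 57.8 and 53.6 in control and 12.6, 15.6 and 40.9 in RSL3-treated libraries, with a log2 fold change of -1.14 and an SE of 0.35 (edgeR, adjusted p = 0.0183). In both, RSL3 replicate 3 was the highest RSL3 library and the nearest to control. The log2 fold change of CCN5 was -2.27 without RSL3 replicate 3 and -1.33 without RSL3 replicate 1, and it stayed called (edgeR, adjusted p = 7.48e-06 and 0.00368). CCN4 lost its call without RSL3 replicate 1 or RSL3 replicate 2 (edgeR, adjusted p = 0.0938 and 0.0967), while without RSL3 replicate 3 its log2 fold change was -1.86 (edgeR, adjusted p = 0.000438). CCN3, with far more counts, fell with a log2 fold change of -0.14 (edgeR, adjusted p = 0.00252), from 3700, 3731 and 3653 normalized counts in control to 3341, 3353 and 3336.

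**Figure D5:**
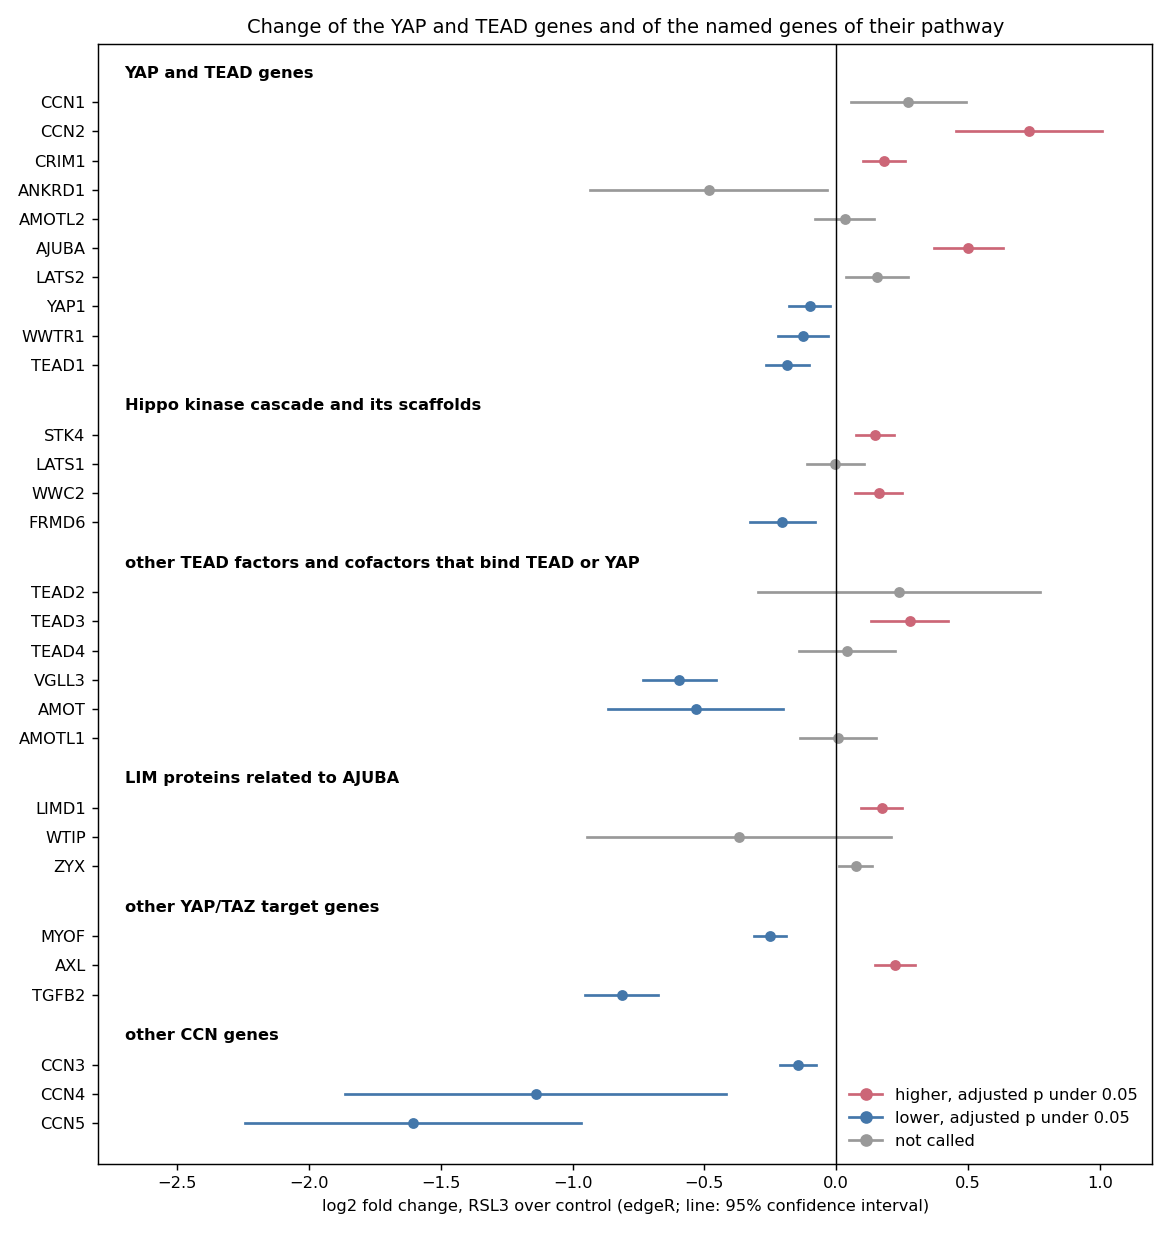
The log2 fold change (RSL3 over control, edgeR) with its 95% confidence interval for the 10 genes and the named genes of 5 lists around them, in red where higher, blue where lower and grey where not called at an adjusted p of 0.05. CCN2 at 0.73 is the highest point and CCN5 at -1.61 the lowest. The genes of the kinase cascade lie between -0.20 and 0.16, with 3 of them called.

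By the correlation of log2 CPM over the 6 libraries, among 11464 genes with a mean normalized count of at least 100, the pattern most like that of CCN1 was in ENSG00000260542, TMEM243 and MVP-DT (Pearson r = 0.991, 0.989 and 0.985, n = 6), none of which passed the test. Most like CCN2 were FRS2, SYVN1 and DUSP1 (Pearson r = 0.998, 0.992 and 0.990, n = 6). Of these, SYVN1, a ubiquitin ligase of the endoplasmic reticulum, and DUSP1, a phosphatase of MAP kinases, rose, with log2 fold changes of 0.15 and 0.35 (edgeR, adjusted p = 0.00318 and 2.01e-05). The values are descriptive, since the highest of so many correlations over 6 libraries in 2 groups are high by selection.

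Marker genes were checked against the label of the cells. Of 9 markers of glioma lines, 7 passed the filter. VIM, CD44, TNC and CHI3L1 had control means of 68318, 24702, 40751 and 6097 normalized counts. Control means of NES, GFAP and OLIG2 were only 153, 104 and 295, and SOX2 and S100B stayed at or under 2.30 and 1.23 in every library. The 9 markers summed to 139689 to 141098 normalized counts in control and 124342 to 129262 in RSL3-treated libraries, with 1 marker higher and 3 lower. That sum came mostly from VIM, CD44 and TNC. The 3 immune markers summed to at most 6.99, the 3 epithelial markers to 22.1 to 25.9 in control and 8.05 to 26.0 in RSL3-treated libraries, and of the immune markers AIF1 was at 0. Endothelial markers summed to 66.8 to 97.1 in control and 29.1 to 50.9 in RSL3-treated libraries and neuronal markers to 171 to 236 and 115 to 118, each through 1 gene that fell (VWF and SNAP25). Oligodendrocyte markers summed to 80.0 to 106 and 141 to 160, through MBP alone, with MOG at 0. The part of these shifts in the changes of the YAP and TEAD genes was not tested.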

How the data were processed

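Poly(A) RNA-seq reads of 6 U87MG libraries (3 control, 3 RSL3, grouped by the sample labels) were trimmed by the authors with Trimmomatic 0.36 and Fastp, aligned to GRCh38.p4 with HISAT2 and counted on exons, unstranded, with HTSeq-count 0.6.1p1. The values the authors deposited are raw counts per Ensembl gene, without normalization. The annotation release is not given in the sources used here. Names, coordinates, exon lengths and overlaps came from GENCODE v44 on GRCh38, which held 56434 of the 65988 identifiers and 15682 of the 16105 tested.

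Tests were run with edgeR 4.0.16 in R 4.3.3: filterByExpr (minimum count 10), TMM, the quasi-likelihood F test without covariates, and Benjamini-Hochberg adjustment over all genes tested. Normalized counts are TMM counts scaled to the mean library size, and log2 fold changes carry 95% confidence intervals. Total counts were 27813462 to 43306335, so that counting error is smallest for abundant genes such as YAP1 and largest for ANKRD1. Between replicate libraries the chi-square per gene was 2.53 to 6.02, above sampling noise. The alternatives replaced TMM by total counts or by the size factors of DESeq2, left out the filter or asked for 10 counts per library, or used DESeq2 1.42.0, the tool of the study, with 0, 1 or 2 surrogate variables from sva 3.50.0 (from genes whose mean normalized count exceeded 1). Others used the canonical transcript length for levels between genes, took the replicate number as a block, left out each library, or set other thresholds.

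The genes named are the 10 genes, the 3 with the smallest p in each list, the relatives used in the family shares, and the 3 most correlated with CCN1 and with CCN2. The 10 genes and the lists were chosen with earlier results of these data known. On data simulated from these libraries, edgeR recovered 90.8% of 195 genes changed by 1 on the log2 scale among 15898 tested, and of the unchanged genes it called 0.0446%. The simulation gave every gene the same dispersion. The log2 fold changes of the 10 genes were smaller, from -0.48 to 0.73, and the median absolute value over all called genes was 0.239. Recovery at such changes, and errors for genes that vary more between libraries, were not tested.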

Additional observations from a re-analysis of the deposited data

How the results depend on the processing

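CCN2, AJUBA, TEAD1 and CRIM1 kept their direction and their call in all 14 alternatives run for each gene, with log2 fold changes of 0.61 to 0.95, 0.42 to 0.58, -0.22 to -0.15 and 0.16 to 0.22, and ANKRD1 stayed uncalled in all 14 (-0.67 to -0.34). YAP1 and WWTR1 each lost their call in 9 of 14, in all 3 DESeq2 fits and without the filter, and YAP1 also with DESeq2's size factors (adjusted p = 0.0528). LATS2 gained a call in 4 and CCN1 in 5, among them the fit without the filter (adjusted p = 3.89e-06), which estimated infinite prior degrees of freedom for the spread, against 16.5 with the filter. CCN1 stayed uncalled in the other 9. In DESeq2 with 0, 1 and 2 surrogate variables its adjusted p was 0.417, 0.448 and 0.540.

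The replicate numbers were not taken to pair the libraries, since the correlations of the deviations of same-numbered libraries were 0.060, 0.110 and 0.184, though each of the 6 libraries correlated best with its own number. With the replicate block, 7 of the 10 genes were called, CCN1 being added (adjusted p = 0.00132), of 4633 genes in all, and 2 LIM genes, ZYX being added (adjusted p = 0.0338).

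With 2 surrogate variables DESeq2 called 2268 genes in all, 1 of the kinase cascade and 1 of the TEAD factors and cofactors. At an adjusted p under 0.01 edgeR called 2691 genes. With a log2 fold change of at least 0.5 in either direction as a further condition it called 768 genes, 2 of the 10, 2 other targets, 0 of the kinase cascade and 0 LIM genes. With total counts the 4114 calls were 1934 higher and 2180 lower. With 1 library left out, 3081 to 3924 genes were called, 4 to 7 of the 10, and 1 (without RSL3 replicate 2) to 3 of the TEAD factors and cofactors.

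The log2 fold changes of uncalled genes near 0 changed sign in some fits. With 1 library left out they ranged from -0.0036 to 0.0817 for AMOTL2, from -0.0230 to 0.0183 for LATS1, from -0.0105 to 0.492 for TEAD2, from -0.0165 to 0.0885 for TEAD4 and from -0.0654 to 0.0808 for AMOTL1. LATS1 was at 5.34e-05 and 0.00261 in DESeq2 with 0 and 2 surrogate variables, and AMOTL1 at -0.00185 with total counts. The cause of these changes was not tested. The median log2 fold change of all genes was lowest, at -0.0127, with total counts.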

Other observations

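Several genes of the lists had groups that did not overlap without passing edgeR's test, and these were singled out after their values were seen. Groups did not overlap in 38.6% of all genes tested, so this trait is common. It held for 5 of the 14 genes of the kinase cascade and 9 of the 15 other targets tested, called or not. MOB1A, the activator of LATS kinases, had 5484, 5402 and 5641 normalized counts in control and 5933, 5824 and 5778 in RSL3-treated libraries (log2 fold change 0.08, adjusted p = 0.0543). NF2, the upstream tumour suppressor merlin, had 1291, 1322 and 1309 in control and 1197, 1250 and 1274 in RSL3-treated libraries (log2 fold change -0.07, adjusted p = 0.290). The targets PTPN14, DOCK5 and CCDC80 had log2 fold changes of 0.10, 0.09 and 0.07 (edgeR, adjusted p = 0.0541, 0.0604 and 0.156). The further target genes that passed the test were GADD45A and ASAP1, which rose with log2 fold changes of 0.17 and 0.13, and IGFBP3 and RBMS3, which fell with -0.17 and -0.56 (edgeR, adjusted p = 0.00147, 0.0161, 0.00350 and 0.0254). RBMS3 had 160, 108 and 142 normalized counts in control and 88.5, 79.0 and 114 in RSL3-treated libraries, so its groups overlapped.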
